A study of Homo sapiens with 40 samples.

Results

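The genes described here are 33 human genes of the replication stress response and of repair by homologous recombination, listed by name for their roles. They were chosen with earlier results of these data known, so comparisons with all genes describe this list only. Each was represented on the arrays by its single-symbol probe set, that is a probe set whose annotation names 1 gene, and where a gene had several by the one with the highest mean over 40 arrays. Such a probe set was found for 30 of the 33 genes, out of 19775 genes in all. BRCA2, FANCA and FANCD2 were not analysed here. All 30 genes passed the filter on dim probe sets, as did 15211 of the 19775 genes.

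RNA was measured on 40 one-colour Affymetrix arrays in 10 established cell lines from diffuse large B-cell lymphoma, which grows from mature B cells. Each line was grown for 72 hours with 500 nM GSK126, a small molecule that inhibits the histone methyltransferase EZH2, or with 0.1% DMSO, its vehicle, with 2 arrays for each line and treatment. Labelled as EZH2 mutant were SU-DHL-4, DB, Pfeiffer, SU-DHL-6, SU-DHL-10, KARPAS-422 and WSU-DLCL2, and as wild type HT, OCI-LY-19 and Toledo. The labels do not name the mutations. They give each line's average growth IC50 of the drug (gIC50, the dose that lowers growth to a midpoint): 28 nM for Pfeiffer, 134 nM for WSU-DLCL2, 232 nM for KARPAS-422, 448 nM for SU-DHL-10, 516 nM for HT, 582 nM for SU-DHL-6, 861 nM for DB, 1019 nM for OCI-LY-19, 4828 nM for SU-DHL-4 and 13786 nM for Toledo. The 2 arrays of each group are titled biological replicates, with nothing on whether cultures were separate. The p-values within a line rest on the spread between arrays of a group, pooled over all 20 groups, and not on that line's own arrays alone. Both arrays of a group correlated at 0.982 to 0.989, and each of the 40 arrays was closest to another array of its own line. CD79A, CD79B, PAX5 and CD22, markers of B cells, lay above the array's median on 40 of 40 arrays, and MS4A1 and BLK on 36. Of 14 markers of other cell types, CD3E, KRT8, COL1A1, PECAM1 and HBB lay above it on 34 or more arrays, COL1A2 on 14, CSF1R on 11, CD8A on 8, CD3D on 7, EPCAM on 4, LYZ and VWF on 2, and NKG7 and CD14 on 0. The summed signal of the 14 markers ranged from 918 to 26507 with GSK126 (median 1092) and from 785 to 26863 with DMSO (median 1039). That of the 6 B cell markers had medians of 43262 and 41346. Among the 14, CD8A, EPCAM and CD3D reached 13.94, 13.62 and 12.39 on the log2 scale, with medians over arrays of 5.73, 5.11 and 5.66.

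When a replication fork stalls, single-stranded DNA gathers on it, the kinase ATR is switched on, and its effector CHEK1 holds back cell division and further origin firing while the fork is kept intact. A fork that breaks is repaired by homologous recombination, in which BRCA1, PALB2 and BRCA2 act on resected DNA so that the sister chromatid can be copied. The Fanconi anaemia proteins call on the same machinery to clear crosslinks between strands. Germinal centre B cells, from which many of these lymphomas arise, divide fast and break their own DNA while they edit antibody genes, and they rely on these pathways. Many of the genes are transcribed in late G1 and S phase under E2F factors.

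Upstream sequence is shown for 4 genes because E2F factors and CCAAT-binding NF-Y are known regulators of S phase genes, and because these 4 stand near both ends of the responses described below. DTL was called in 7 lines and CHEK1 in 5, as were TOPBP1, TIPIN, BRIP1 and MSH6, of which CHEK1 had the largest mean absolute change. ATR and XRCC2 were called in 0 lines, as were XRCC3 and FANCB, whose mean absolute changes were larger. Each line gives the 200 bases before a RefSeq start site of the gene (GRCh38.p14), 5′ to 3′ on the gene's strand. Capitals mark matches, on either strand, to the E2F forms TTGGCGC (form 1), TTCGCGC (form 2), TTCCCGC (form 3) and TTGCCGC (form 4), to the element called CHR (letters TTTGAA) or to the box CCAAT.
DTL, chr1:212035548-212035747, plus strand: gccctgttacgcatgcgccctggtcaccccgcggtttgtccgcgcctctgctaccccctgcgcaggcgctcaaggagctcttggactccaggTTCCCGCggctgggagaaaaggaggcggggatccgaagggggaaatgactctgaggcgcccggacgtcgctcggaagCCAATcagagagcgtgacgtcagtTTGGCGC
CHEK1, chr11:125626029-125626228, plus strand: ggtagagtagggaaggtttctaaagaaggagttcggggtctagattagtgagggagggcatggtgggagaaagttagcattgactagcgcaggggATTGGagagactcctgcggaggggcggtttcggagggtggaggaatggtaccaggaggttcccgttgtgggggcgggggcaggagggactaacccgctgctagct
ATR, chr3:142578734-142578933, minus strand: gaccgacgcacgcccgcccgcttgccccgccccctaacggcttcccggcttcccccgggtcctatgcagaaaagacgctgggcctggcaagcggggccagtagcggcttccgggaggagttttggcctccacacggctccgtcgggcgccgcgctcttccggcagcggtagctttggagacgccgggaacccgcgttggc
XRCC2, chr7:152676142-152676341, minus strand: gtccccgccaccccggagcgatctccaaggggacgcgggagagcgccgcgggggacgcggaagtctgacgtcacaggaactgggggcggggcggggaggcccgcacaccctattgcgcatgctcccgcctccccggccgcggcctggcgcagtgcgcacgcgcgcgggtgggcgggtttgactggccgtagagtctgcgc
DTL carries E2F forms 108 and 7 bases before its start and a CCAAT box between them, CHEK1 carries a reversed CCAAT box, and the windows of ATR and XRCC2 shown here hold none of the letters searched. Over the full window of 250 bases before to 50 after the start, 17 of 27 genes with a sequence (63%) held at least 1 E2F form, against 13.1% of all 27305 windows and 17.1% of 15843 windows of protein-coding genes. Form 3 was the commonest, in 14 of the 27 genes and in 6.56% of all windows, and in TOPBP1 matches to forms 1 and 2 overlapped. A CCAAT box was found in 15 of the 27 (55.6%), against 35.7% of all windows, and CHR in 3 (11.1%), against 15.4%. E2F forms were found in genes of both kinds. XRCC2, with a match after its start, XRCC3 and FANCC, which fell in 0 lines, held them. CHEK1, CHEK2, TIPIN, RAD51C, FANCI and RMI1, which fell in 3 or more lines, did not in the window read. A single window was read for each gene. That of CHEK1 lies inside the gene, downstream of its annotated start at chr11:125625136, and the sequence at that start was not searched. DONSON, BRCA1 and RAD54B had no entry in that table.

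In Pfeiffer, WSU-DLCL2 and KARPAS-422, the lines with the lowest growth IC50, 18 to 22 of the 30 genes fell with GSK126 and at most 1 rose. The fit compared log2(signal + 17.72) between treatments within each line, and a gene is said to fall or rise where its Benjamini-Hochberg adjusted p over 15211 genes was under 0.05 (limma). In Pfeiffer 22 of 30 genes fell and 0 rose, against 9.93% fallen and 14.6% risen among all tested genes. In WSU-DLCL2 18 fell and 1 rose, against 12.7% and 13.9% of all genes. KARPAS-422 had 20 fallen and 0 risen, against 13.4% and 15.5%, and SU-DHL-10 had 12 fallen and 1 risen, against 7.16% and 11% of all genes. So in each of these lines the share of these genes that fell was above the share of all genes. The share that rose was below that of all genes. Because the genes were chosen with earlier results of these data known, this excess describes the list. It cannot serve as an independent test of whether such genes fall more often than others.

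The wild type line HT had 11 of 30 genes fallen and 0 risen, where 3% of all genes fell and 6.31% rose. SU-DHL-6, with a similar growth IC50, had 3 fallen and 0 risen, against 3.56% and 7.42% of all genes. SU-DHL-4 had 3 fallen, namely DTL, DONSON and MSH6, and 0 risen, against 0.454% and 2.14%. In DB (0.618% of all genes fallen, 2.5% risen), OCI-LY-19 (0.44% and 1.97%) and Toledo (0.0263% and 0.138%) 0 genes of the list passed in either direction. At an unadjusted p under 0.05, DB had 4 genes lower and 0 higher (5.36% and 7.72% of all genes), OCI-LY-19 6 and 0 (3.96% and 7.71%), and Toledo 0 and 2 (2.05% and 4.64%). The other lines with 0 risen had, unadjusted, 0 higher in Pfeiffer (20.6% of all genes), 2 in KARPAS-422 (19.9%), 1 in HT (12.6%), 0 in SU-DHL-6 (14%) and 1 in SU-DHL-4 (8.23%).

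**Figure D1:**
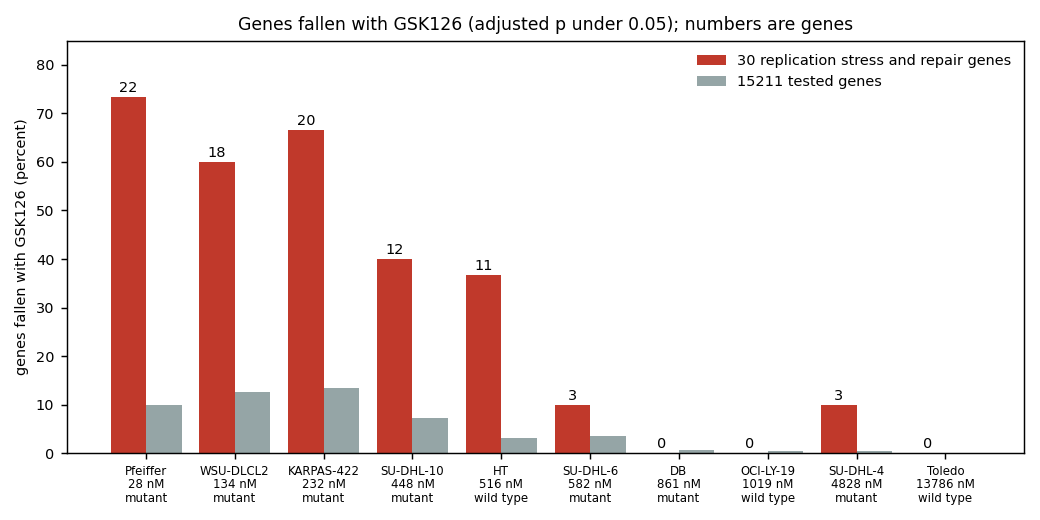
Percent of genes that fell with GSK126 (adjusted p under 0.05) in each line, in order of growth IC50, for the 30 replication stress and repair genes (red, number above the bar) and for all 15211 tested genes (grey). The red bar is above the grey one in Pfeiffer (22 genes), WSU-DLCL2, KARPAS-422, SU-DHL-10, HT, SU-DHL-6 and SU-DHL-4, and DB, OCI-LY-19 and Toledo have 0 genes of the list.

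The falls were moderate in size. Of 89 fallen values over genes and lines, 52 were smaller than 0.5 on the log2 scale and 4 were 1 or more, with a median of -0.47, a loss of 27.8% of the signal plus pseudocount. The 4 large ones were CHEK1 in Pfeiffer and KARPAS-422, RAD54B in WSU-DLCL2 and CLSPN in Pfeiffer. In all 91 called values, falls and rises together, the arrays of both treatments did not overlap, so a lack of overlap adds nothing to a call. Both GSK126 arrays lay below both DMSO arrays for 25 of the 30 genes in Pfeiffer, against 24.4% of all genes. In Toledo they did so for 3, against 12.5%. That share of all genes was highest in KARPAS-422, at 29.7%. The median change of the 30 genes was -0.54 for Pfeiffer, -0.35 for WSU-DLCL2, -0.41 for KARPAS-422, -0.15 for SU-DHL-10, -0.26 for HT, -0.09 for SU-DHL-6, -0.07 for DB, -0.08 for OCI-LY-19, -0.12 for SU-DHL-4 and 0.00 for Toledo. Over all tested genes the medians lay between -0.00 and 0.07. The arrays hold RNA of whole cultures, so fewer cells that express a gene and less RNA of it per cell cannot be told apart. Genes for DNA replication and mitosis moved in the same lines, with values given below, and their part in these changes was not tested.

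Scaling the arrays to equal medians moved the median of all genes by -0.23 for SU-DHL-10, -0.22 for WSU-DLCL2, -0.17 for SU-DHL-6, -0.15 for KARPAS-422, -0.14 for Pfeiffer and -0.14 for Toledo, and by -0.07 to 0.04 elsewhere. With that scaling 21 genes of the list fell in SU-DHL-10, against 21.8% of all genes, 14 in SU-DHL-6, against 12.5%, and 1 in SU-DHL-4, against 0.118%. The median of the 30 genes lay below the median of all genes in each of the 10 lines under both scalings, and after quantile normalization it did so in 9, with 0.02 against 0.01 in Toledo.

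**Figure D2:**
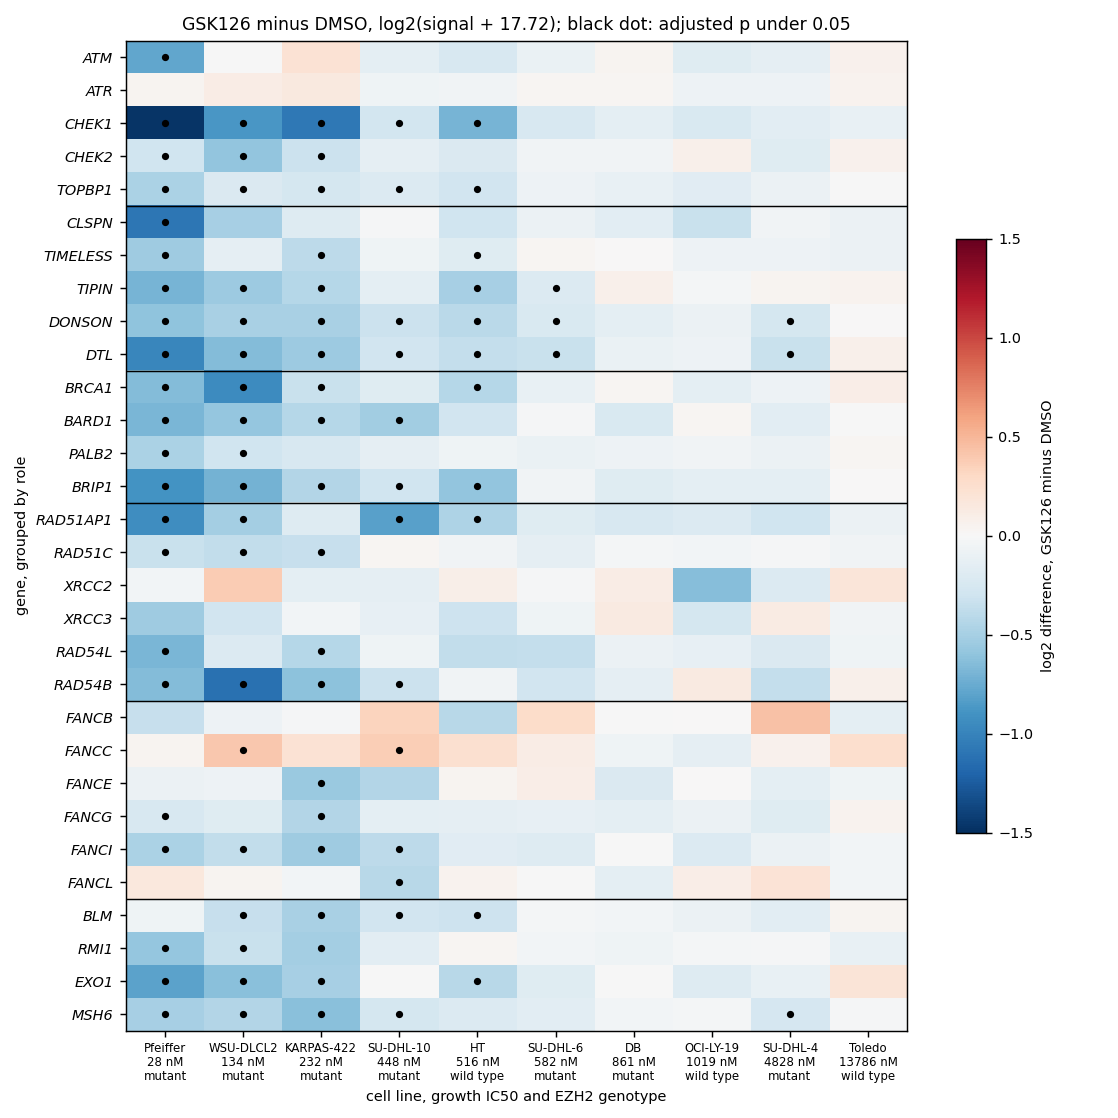
Change with GSK126 (log2 difference, GSK126 minus DMSO, mean of 2 arrays each) of the 30 genes in the 10 lines, lines in order of growth IC50 and genes grouped by role, blue lower and red higher with GSK126. Black dots mark adjusted p under 0.05, of which 89 are falls and 2, both FANCC, are rises.

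Many of the genes fell in several lines. DTL and DONSON fell in 7 lines, CHEK1, TOPBP1, TIPIN, BRIP1 and MSH6 in 5, and BRCA1, BARD1, RAD51AP1, RAD54B, FANCI, BLM and EXO1 in 4. In all 18 of 30 genes fell in at least 3 lines, against 6.07% of all tested genes, 14 in at least 4, against 2.6%, and 7 in at least 5, against 0.999%. At the other end ATR, XRCC2, XRCC3, FANCB and FANCC fell in 0 lines.

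Among the checkpoint kinases, CHEK1 had the largest called fall and ATR did not pass the test in any line. CHEK1, the effector kinase of ATR, measured 10.14 and 9.92 with GSK126, against 11.45 and 11.55 with DMSO in Pfeiffer. In KARPAS-422 it measured 9.79 and 9.61 with GSK126, against 10.92 and 10.63 with DMSO. It measured 10.44 and 10.44 with GSK126, against 11.42 and 11.22 with DMSO in WSU-DLCL2. Every GSK126 array of these 3 lines lay below every DMSO array of the same line, by 0.78 or more on the log2 scale. Levels in HT were 9.78 and 9.93 with GSK126, against 10.53 and 10.57 with DMSO, again with no overlap. In SU-DHL-10 the gap was narrow, with 11.04 and 11.03 with GSK126, against 11.30 and 11.32 with DMSO. The differences were -1.47 ± 0.09 in Pfeiffer, adjusted p = 1.21e-12, -1.07 ± 0.09 in KARPAS-422, adjusted p = 2.56e-10, -0.88 ± 0.09 in WSU-DLCL2, adjusted p = 2.34e-08, and -0.70 ± 0.09 in HT, adjusted p = 4.49e-06. In Pfeiffer that is a loss of 64% of the signal plus pseudocount. The fall in SU-DHL-10, -0.28 ± 0.09 with adjusted p = 0.0329, was lost whichever array was left out (adjusted p = 0.1 or 0.128 when DMSO replicate 1 or 2 was left out, and 0.117 or 0.117 when GSK126 replicate 1 or 2 was). In the 5 lines without a call CHEK1 ran from 10.04 through a median of 11.33 to 11.61 over the 10 GSK126 arrays, against 10.32 through 11.43 to 11.85 over the 10 DMSO arrays. All 5 changes were below 0, between -0.24 and -0.11, with a smallest adjusted p of 0.0912.

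TOPBP1, which activates ATR, was called in the same 5 lines as CHEK1. It measured 11.37 and 11.25 with GSK126, against 11.76 and 11.81 with DMSO in Pfeiffer, where it fell furthest (-0.47 ± 0.06, adjusted p = 4.47e-07). In KARPAS-422 it measured 12.17 and 12.18 with GSK126, against 12.43 and 12.47 with DMSO. HT had 12.16 and 12.33 with GSK126, against 12.53 and 12.52 with DMSO. The treated arrays lay below the vehicle arrays without overlap in these lines, and in KARPAS-422 the difference was -0.27 ± 0.06 (adjusted p = 0.000752) and in HT -0.28 ± 0.06 (adjusted p = 0.00159). WSU-DLCL2 had 11.94 and 12.03 with GSK126, against 12.24 and 12.15 with DMSO, and SU-DHL-10 had 12.05 and 12.09 with GSK126, against 12.31 and 12.25 with DMSO. Those gaps were 0.12 or more and 0.16 or more, so the groups came close without overlap. Single arrays carried 3 of these calls. Without GSK126 replicate 1 the value in HT was -0.20, adjusted p = 0.0961, that in WSU-DLCL2 -0.16, adjusted p = 0.116, and that in SU-DHL-10 -0.19, adjusted p = 0.0979. Without DMSO replicate 1 the value in WSU-DLCL2 was -0.17, adjusted p = 0.103, and that in SU-DHL-10 -0.18, adjusted p = 0.111. Over the other 5 lines TOPBP1 ran from 11.26 through a median of 11.99 to 12.61 over the 10 GSK126 arrays, against 11.36 through 12.09 to 12.71 over the 10 DMSO arrays, with changes between -0.17 and -0.01, with a smallest adjusted p of 0.165.

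CHEK2, the effector kinase of ATM, fell in WSU-DLCL2 (-0.59), KARPAS-422 (-0.33) and Pfeiffer (-0.30). Its calls in Pfeiffer and KARPAS-422 were lost without single arrays, with adjusted p = 0.115 in Pfeiffer without DMSO replicate 2 and 0.0853 without GSK126 replicate 2, and in KARPAS-422 0.0517 without DMSO replicate 1 and 0.0917 without GSK126 replicate 1. ATM, which responds to double-strand breaks, was called in Pfeiffer alone, with 10.16 and 9.08 with GSK126, against 10.41 and 10.38 with DMSO. One of the treated arrays stood far below the other, and without GSK126 replicate 2 the difference of -0.78 shrank to -0.24, adjusted p = 0.11. Of the 5 other probe sets of ATM, 1 moved with the chosen one across lines (r = 0.97) and 4 did not (r from -0.38 to 0.08), and the chosen set is of a type that can cross-hybridise. ATR had changes between -0.07 and 0.14, with a smallest adjusted p of 0.103. Its arrays ran from 10.97 through a median of 11.54 to 12.03 over the 20 GSK126 arrays, against 10.87 through 11.52 to 12.05 over the 20 DMSO arrays, so that the ranges of both treatments covered nearly the same levels.

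Among genes that guard the fork or control licensing, DTL and DONSON fell in the same 7 lines. DTL, the receptor through which the CRL4 ubiquitin ligase destroys the licensing factor CDT1, measured 10.56 and 10.53 with GSK126, against 11.47 and 11.57 with DMSO in Pfeiffer. In WSU-DLCL2 it measured 11.49 and 11.48 with GSK126, against 12.14 and 12.14 with DMSO. Levels in KARPAS-422 were 11.25 and 11.22 with GSK126, against 11.82 and 11.74 with DMSO. Replicates lay within 0.10 of each other here, and both treated arrays were lower by 0.49 or more. The differences were -0.97 ± 0.06 in Pfeiffer, adjusted p = 8.05e-13, -0.66 ± 0.06 in WSU-DLCL2, adjusted p = 1.8e-09, and -0.55 ± 0.06 in KARPAS-422, adjusted p = 2.43e-08. HT had 11.36 and 11.44 with GSK126, against 11.83 and 11.69 with DMSO, and SU-DHL-10 had 12.29 and 12.25 with GSK126, against 12.51 and 12.60 with DMSO. DTL was also called in less sensitive lines, with 10.89 and 10.96 with GSK126, against 11.29 and 11.23 with DMSO in SU-DHL-6. In SU-DHL-4 it measured 11.96 and 11.82 with GSK126, against 12.20 and 12.25 with DMSO. The groups did not overlap in any of these 4 lines, where the falls were -0.36 ± 0.06 in HT, -0.33 ± 0.06 in SU-DHL-6, -0.33 ± 0.06 in SU-DHL-4 and -0.28 ± 0.06 in SU-DHL-10, with a largest adjusted p of 0.00101 in SU-DHL-4. In these 4 lines 20.1% to 22.2% of all genes also lay lower with GSK126 without overlap. The call in SU-DHL-4 was lost without GSK126 replicate 2 (-0.26, adjusted p = 0.067). Over DB, OCI-LY-19 and Toledo the level ran from 11.14 through a median of 12.06 to 12.81 over the 6 GSK126 arrays, against 11.24 through 12.14 to 12.77 over the 6 DMSO arrays, and the changes lay between -0.10 and 0.07, with a smallest adjusted p of 0.522.

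DONSON, a replisome protein needed for stable forks, measured 10.76 and 10.72 with GSK126, against 11.39 and 11.30 with DMSO in Pfeiffer. WSU-DLCL2 had 11.60 and 11.53 with GSK126, against 12.05 and 12.07 with DMSO. KARPAS-422 had 10.96 and 10.92 with GSK126, against 11.46 and 11.38 with DMSO. In each the treated arrays lay at least 0.42 below the vehicle arrays, with differences of -0.60 ± 0.05 in Pfeiffer, adjusted p = 2.3e-10, -0.49 ± 0.05 in WSU-DLCL2, adjusted p = 1.22e-08, and -0.48 ± 0.05 in KARPAS-422, adjusted p = 8.39e-09. HT followed with 11.17 and 11.14 with GSK126, against 11.57 and 11.56 with DMSO. SU-DHL-10 had 11.44 and 11.42 with GSK126, against 11.69 and 11.81 with DMSO. In SU-DHL-6 the values were 11.35 and 11.34 with GSK126, against 11.57 and 11.59 with DMSO. These groups did not overlap, and in SU-DHL-6 both pairs of replicates lay within 0.02. SU-DHL-4 had 11.42 and 11.41 with GSK126, against 11.69 and 11.67 with DMSO. The falls were -0.41 ± 0.05 in HT, -0.23 ± 0.05 in SU-DHL-6, -0.26 ± 0.05 in SU-DHL-4 and -0.32 ± 0.05 in SU-DHL-10 (largest adjusted p = 0.00161, in SU-DHL-6). No call of DONSON was lost by leaving out an array. DB, OCI-LY-19 and Toledo ran from 10.97 through a median of 11.51 to 11.74 over the 6 GSK126 arrays, against 11.06 through 11.65 to 11.70 over the 6 DMSO arrays, with changes between -0.15 and 0.01, with a smallest adjusted p of 0.114.

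TIMELESS and TIPIN form the complex that travels with the fork and couples it to the checkpoint. TIPIN fell in 5 lines, with changes of -0.70 ± 0.06 in Pfeiffer, -0.54 ± 0.06 in WSU-DLCL2, -0.50 ± 0.06 in HT, -0.43 ± 0.06 in KARPAS-422 and -0.20 ± 0.06 in SU-DHL-6. TIMELESS fell in 3 of them, with changes of -0.54 ± 0.06 in Pfeiffer, -0.39 ± 0.06 in KARPAS-422 and -0.18 ± 0.06 in HT. The calls of TIMELESS in HT and TIPIN in SU-DHL-6 were lost without single arrays. Leaving out 1 array gave TIMELESS in HT adjusted p = 0.0914 or 0.208 when DMSO replicate 1 or 2 was left out, and 0.264 or 0.0651 when GSK126 replicate 1 or 2 was. TIPIN in SU-DHL-6 had 0.132 without DMSO replicate 1, 0.114 without DMSO replicate 2 and 0.237 without GSK126 replicate 1. CLSPN, the adaptor that presents CHEK1 to ATR, was called in Pfeiffer alone, with 6.22 and 7.14 with GSK126, against 7.68 and 7.85 with DMSO. Without GSK126 replicate 1 the difference of -1.08 became -0.62, adjusted p = 0.0546.

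**Figure D3:**
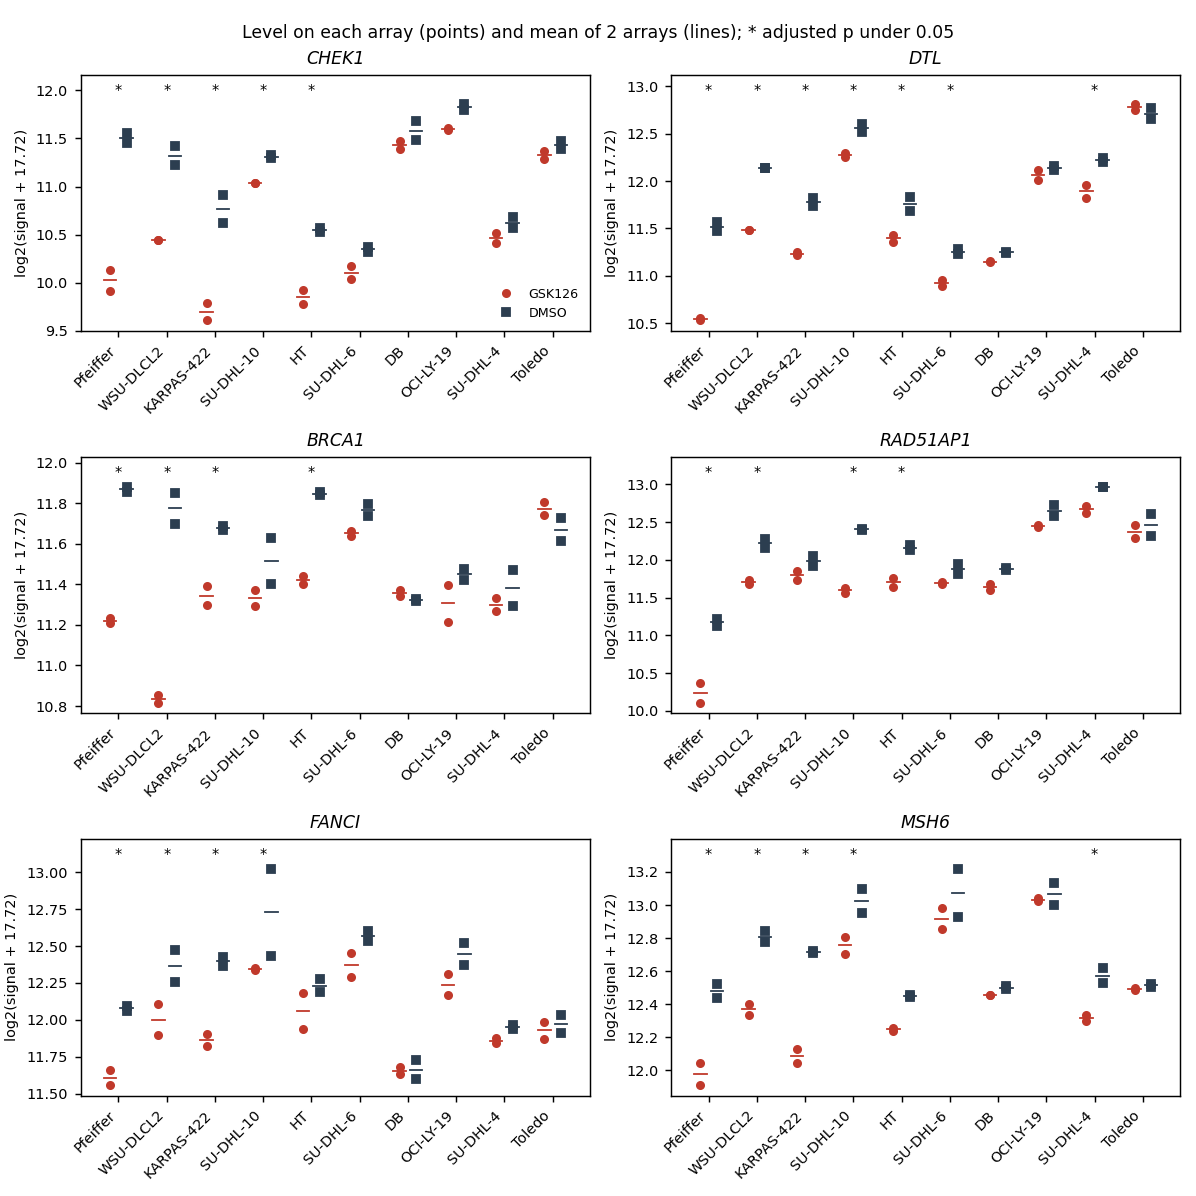
Level on each array, log2(signal + 17.72), of 1 gene from each role group, with GSK126 arrays as red circles and DMSO arrays as dark squares, lines at the mean of 2 arrays, and asterisks at adjusted p under 0.05. CHEK1 and DTL lie lower with GSK126 in the lines on the left, and both treatments lie close together in Toledo on the right.

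In the BRCA1 complexes all 4 measured genes fell in Pfeiffer and in WSU-DLCL2, against 9.93% and 12.7% of all genes. BRIP1, a helicase that binds BRCA1, measured 9.98 and 10.05 with GSK126, against 10.85 and 10.97 with DMSO in Pfeiffer. WSU-DLCL2 had 10.57 and 10.59 with GSK126, against 11.31 and 11.27 with DMSO. HT had 10.43 and 10.56 with GSK126, against 11.08 and 11.08 with DMSO. The treated arrays were lower by 0.52 or more in these 3 lines, with differences of -0.89 ± 0.07 in Pfeiffer, adjusted p = 1.38e-10, -0.71 ± 0.07 in WSU-DLCL2, adjusted p = 1.15e-08, and -0.59 ± 0.07 in HT, adjusted p = 1.18e-06. In KARPAS-422 the values were 10.21 and 10.02 with GSK126, against 10.49 and 10.61 with DMSO. In SU-DHL-10 they were 10.97 and 11.06 with GSK126, against 11.34 and 11.29 with DMSO. Both are falls without overlap, of -0.44 ± 0.07 in KARPAS-422 and -0.30 ± 0.07 in SU-DHL-10 (adjusted p = 0.00229). The 5 lines without a call ran from 10.67 through a median of 10.82 to 11.50 over the 10 GSK126 arrays, against 10.71 through 11.01 to 11.60 over the 10 DMSO arrays, with changes between -0.18 and 0.01, with a smallest adjusted p of 0.212.

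BRCA1 itself, a ubiquitin ligase with BARD1, fell furthest in WSU-DLCL2, with 10.82 and 10.85 with GSK126, against 11.85 and 11.70 with DMSO. Pfeiffer had 11.24 and 11.21 with GSK126, against 11.88 and 11.85 with DMSO. HT had 11.44 and 11.40 with GSK126, against 11.84 and 11.86 with DMSO. The treated arrays in WSU-DLCL2 were the lowest for BRCA1 in any of the 10 lines, and the differences were -0.94 ± 0.07 in WSU-DLCL2, adjusted p = 6.85e-11, -0.65 ± 0.07 in Pfeiffer, adjusted p = 5.71e-08, and -0.43 ± 0.07 in HT, adjusted p = 0.000127. KARPAS-422 had 11.39 and 11.30 with GSK126, against 11.67 and 11.69 with DMSO, a difference of -0.33 ± 0.07 (adjusted p = 0.000539). In the other 6 lines BRCA1 ran from 11.22 through a median of 11.37 to 11.81 over the 12 GSK126 arrays, against 11.29 through 11.47 to 11.80 over the 12 DMSO arrays. Those changes lay between -0.18 and 0.10, with a smallest adjusted p of 0.0756. BARD1 fell in Pfeiffer (-0.69), WSU-DLCL2 (-0.58), SU-DHL-10 (-0.53) and KARPAS-422 (-0.42). In SU-DHL-10 its DMSO arrays differed by more than the treatment, and without DMSO replicate 1 the difference was -0.24, adjusted p = 0.101. PALB2, which joins BRCA1 to BRCA2, fell in Pfeiffer (-0.48) and WSU-DLCL2 (-0.29). The call in Pfeiffer was lost without GSK126 replicate 1 (-0.33, adjusted p = 0.0506), and that in WSU-DLCL2 without DMSO replicate 2 (-0.21, adjusted p = 0.264) or GSK126 replicate 1 (-0.18, adjusted p = 0.346).

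RAD51AP1, which promotes strand exchange in recombination, fell in Pfeiffer, SU-DHL-10, WSU-DLCL2 and HT. It measured 10.11 and 10.37 with GSK126, against 11.21 and 11.13 with DMSO in Pfeiffer. SU-DHL-10 had 11.63 and 11.56 with GSK126, against 12.40 and 12.41 with DMSO. WSU-DLCL2 had 11.74 and 11.68 with GSK126, against 12.28 and 12.16 with DMSO. No group overlapped, and the differences were -0.93 ± 0.08 in Pfeiffer, adjusted p = 2.1e-09, -0.81 ± 0.08 in SU-DHL-10, adjusted p = 4.53e-08, and -0.51 ± 0.08 in WSU-DLCL2, adjusted p = 3.36e-05. SU-DHL-10 is a line in which the median of the 30 genes changed by -0.15. HT had 11.76 and 11.65 with GSK126, against 12.20 and 12.13 with DMSO, a change of -0.46 ± 0.08 (adjusted p = 0.000454). In the other 6 lines, KARPAS-422 included (-0.19, adjusted p = 0.0958), RAD51AP1 ran from 11.60 through a median of 12.07 to 12.71 over the 12 GSK126 arrays, against 11.81 through 12.18 to 12.97 over the 12 DMSO arrays. All 6 changes lay below 0, between -0.30 and -0.09, with a smallest adjusted p of 0.0567.

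RAD54B, a DNA-dependent motor protein of homologous recombination, had its largest fall in WSU-DLCL2, with 9.56 and 9.57 with GSK126, against 10.61 and 10.75 with DMSO. Pfeiffer had 9.28 and 9.11 with GSK126, against 9.94 and 9.76 with DMSO. KARPAS-422 had 9.57 and 9.22 with GSK126, against 10.11 and 9.91 with DMSO. The gap in WSU-DLCL2 exceeded 1 on the log2 scale, and the differences were -1.11 ± 0.10 in WSU-DLCL2, adjusted p = 2.87e-09, -0.65 ± 0.10 in Pfeiffer, adjusted p = 1.85e-05, and -0.62 ± 0.10 in KARPAS-422, adjusted p = 2.82e-05. In SU-DHL-10 RAD54B measured 9.73 and 9.64 with GSK126, against 10.00 and 10.01 with DMSO. That difference of -0.32 ± 0.10, adjusted p = 0.027, was lost without any 1 of the 4 arrays (adjusted p = 0.0969 or 0.101 when DMSO replicate 1 or 2 was left out, and 0.0604 or 0.155 when GSK126 replicate 1 or 2 was). The other 6 lines ran from 9.0 through a median of 10.07 to 10.53 over the 12 GSK126 arrays, against 9.44 through 10.25 to 10.49 over the 12 DMSO arrays, with changes between -0.36 and 0.14, with a smallest adjusted p of 0.0614. Its relative RAD54L fell in Pfeiffer (-0.69) and KARPAS-422 (-0.43). The call in KARPAS-422 was lost without DMSO replicate 1 (adjusted p = 0.112), GSK126 replicate 1 (0.0906) or GSK126 replicate 2 (0.0566). RAD51C, which acts in homologous recombination, fell in 3 lines, with changes of -0.37 ± 0.06 in WSU-DLCL2, -0.35 ± 0.06 in KARPAS-422 and -0.34 ± 0.06 in Pfeiffer. XRCC2 and XRCC3, which act in the same repair, had no call. Changes of XRCC2, whose probe set can cross-hybridise, lay between -0.64 and 0.38, with a smallest adjusted p of 0.202, and those of XRCC3 between -0.54 and 0.14, with a smallest adjusted p of 0.0694.

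The 6 Fanconi anaemia genes held 8 of the 89 falls and, in FANCC, both rises. In WSU-DLCL2 1 of the 6 fell (16.7%), near the 12.7% of all genes. In KARPAS-422 3 fell (50%, against 13.4%), and in Pfeiffer and SU-DHL-10 2 each (33.3%, against 9.93% and 7.16%). The rises were 1 of 6 in WSU-DLCL2 and in SU-DHL-10 (16.7% each, against 13.9% and 11%). FANCI, which is clamped on crosslinked DNA with FANCD2, measured 11.91 and 11.82 with GSK126, against 12.43 and 12.37 with DMSO in KARPAS-422. Pfeiffer had 11.66 and 11.56 with GSK126, against 12.06 and 12.09 with DMSO. WSU-DLCL2 had 12.11 and 11.90 with GSK126, against 12.48 and 12.25 with DMSO. The groups did not overlap, and the differences were -0.53 ± 0.12 in KARPAS-422, adjusted p = 0.000665, -0.47 ± 0.12 in Pfeiffer, adjusted p = 0.00293, and -0.36 ± 0.12 in WSU-DLCL2, adjusted p = 0.0183. SU-DHL-10 had 12.35 and 12.33 with GSK126, against 12.44 and 13.02 with DMSO. Its DMSO replicate 2 lay far above the other 3 arrays. The difference of -0.39 ± 0.12, adjusted p = 0.0175, was -0.09, adjusted p = 0.623 without that array, -0.39, adjusted p = 0.0763 without GSK126 replicate 1 and -0.38, adjusted p = 0.0802 without GSK126 replicate 2. The call in WSU-DLCL2 was also lost, with -0.25, adjusted p = 0.231 without DMSO replicate 1 and -0.26, adjusted p = 0.224 without GSK126 replicate 2. Over 6 lines without a call FANCI ran from 11.63 through a median of 11.96 to 12.46 over the 12 GSK126 arrays, against 11.60 through 12.11 to 12.60 over the 12 DMSO arrays, with changes between -0.21 and -0.01, with a smallest adjusted p of 0.336.

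FANCG, a core complex scaffold, measured 10.84 and 10.74 with GSK126, against 11.17 and 11.28 with DMSO in KARPAS-422. Pfeiffer had 10.28 and 10.24 with GSK126, against 10.56 and 10.44 with DMSO. Neither pair of groups overlapped, and the falls were -0.44 ± 0.07 in KARPAS-422, adjusted p = 3.61e-05, and -0.24 ± 0.07 in Pfeiffer, adjusted p = 0.016. The fall in Pfeiffer was lost without DMSO replicate 1 (-0.18, adjusted p = 0.179) or GSK126 replicate 2 (-0.22, adjusted p = 0.102). In the other 8 lines FANCG ran from 10.63 through a median of 10.92 to 11.38 over the 16 GSK126 arrays, against 10.86 through 11.03 to 11.49 over the 16 DMSO arrays, with changes between -0.18 and 0.05, with a smallest adjusted p of 0.0706.

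FANCC, another core complex subunit, rose in 2 lines, where 38% of all tested genes rose in at least 1 line. WSU-DLCL2 had 8.82 and 8.68 with GSK126, against 8.32 and 8.37 with DMSO. SU-DHL-10 had 9.05 and 9.07 with GSK126, against 8.59 and 8.79 with DMSO. The treated arrays lay above the vehicle arrays in both lines, by 0.41 ± 0.11 in WSU-DLCL2 (adjusted p = 0.00514) and 0.37 ± 0.11 in SU-DHL-10 (adjusted p = 0.0148). With arrays at equal medians, with the mean of its 3 probe sets, or with each line fitted alone, FANCC did not pass in either line. Leaving out GSK126 replicate 1 gave 0.34, adjusted p = 0.0762 in WSU-DLCL2. In SU-DHL-10 the value was 0.27, adjusted p = 0.195 without DMSO replicate 1, 0.38, adjusted p = 0.065 without GSK126 replicate 1 and 0.37, adjusted p = 0.071 without GSK126 replicate 2. The other 8 lines ran from 8.29 through a median of 8.96 to 9.49 over the 16 GSK126 arrays, against 8.09 through 8.72 to 9.69 over the 16 DMSO arrays, with changes between -0.13 and 0.25, with a smallest adjusted p of 0.132. FANCL, the ubiquitin ligase of the complex, fell in SU-DHL-10 alone (-0.41 ± 0.08, adjusted p = 0.000422). FANCE fell in KARPAS-422 (-0.56 ± 0.21, adjusted p = 0.0499), a call lost without DMSO replicate 2 (-0.28, adjusted p = 0.5), GSK126 replicate 1 (-0.46, adjusted p = 0.241) or GSK126 replicate 2 (-0.66, adjusted p = 0.0748). FANCB had changes between -0.41 and 0.44, with a smallest adjusted p of 0.304.

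The 4 genes of resection, junction dissolution and mismatch recognition all fell in WSU-DLCL2 and KARPAS-422, against 12.7% and 13.4% of all genes. MSH6, which recognises mismatched bases, measured 12.13 and 12.05 with GSK126, against 12.72 and 12.71 with DMSO in KARPAS-422. Pfeiffer had 11.91 and 12.04 with GSK126, against 12.52 and 12.44 with DMSO. WSU-DLCL2 had 12.34 and 12.40 with GSK126, against 12.84 and 12.78 with DMSO. Treated arrays lay lower by 0.38 or more, and the differences were -0.63 ± 0.07 in KARPAS-422, adjusted p = 4.44e-08, -0.50 ± 0.07 in Pfeiffer, adjusted p = 3.13e-06, and -0.44 ± 0.07 in WSU-DLCL2, adjusted p = 1.84e-05. SU-DHL-10 had 12.81 and 12.71 with GSK126, against 13.10 and 12.95 with DMSO. SU-DHL-4 had 12.33 and 12.30 with GSK126, against 12.53 and 12.62 with DMSO. The differences there, -0.27 ± 0.07 in SU-DHL-10 and -0.26 ± 0.07 in SU-DHL-4, did not hold against single arrays. In SU-DHL-10 the value was -0.20, adjusted p = 0.141 without DMSO replicate 1 and -0.22, adjusted p = 0.0957 without GSK126 replicate 2. With the mean of the 4 probe sets of MSH6 it turned to 0.023 in SU-DHL-10 (adjusted p = 0.906). That mean holds a dim set that failed the filter (mean level 5.65), with changes from -0.89 to 0.90 over the lines. Each of the other sets was lower with GSK126 in all 10 lines. In SU-DHL-4 the adjusted p was 0.0597 or 0.39 when DMSO replicate 1 or 2 was left out, and 0.14 or 0.272 when GSK126 replicate 1 or 2 was. The other 5 lines ran from 12.24 through a median of 12.49 to 13.04 over the 10 GSK126 arrays, against 12.45 through 12.52 to 13.22 over the 10 DMSO arrays, with changes between -0.20 and -0.02, with a smallest adjusted p of 0.07.

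EXO1, a nuclease that resects broken ends, measured 9.06 and 8.91 with GSK126, against 9.72 and 9.87 with DMSO in Pfeiffer. WSU-DLCL2 had 10.14 and 10.24 with GSK126, against 10.82 and 10.81 with DMSO. KARPAS-422 had 9.74 and 9.85 with GSK126, against 10.29 and 10.30 with DMSO. None of these groups overlapped, and the differences were -0.81 ± 0.09 in Pfeiffer, adjusted p = 1.1e-07, -0.62 ± 0.09 in WSU-DLCL2, adjusted p = 6.16e-06, and -0.50 ± 0.09 in KARPAS-422, adjusted p = 0.00011. HT had 9.62 and 9.67 with GSK126, against 10.01 and 10.13 with DMSO, a change of -0.42 ± 0.09 (adjusted p = 0.00267) that became -0.36, adjusted p = 0.0591 without DMSO replicate 2. The other 6 lines ran from 9.22 through a median of 10.20 to 11.45 over the 12 GSK126 arrays, against 9.32 through 10.30 to 11.30 over the 12 DMSO arrays, with changes between -0.19 and 0.20, with a smallest adjusted p of 0.254. BLM and RMI1 act in 1 complex that takes apart joined DNA strands, and in Pfeiffer RMI1 fell (-0.58 ± 0.07, adjusted p = 9.85e-08) while BLM, at -0.06 ± 0.06, did not pass (adjusted p = 0.541). BLM fell in KARPAS-422 (-0.48), WSU-DLCL2 (-0.34), HT (-0.31) and SU-DHL-10 (-0.28), and RMI1 in KARPAS-422 (-0.51) and WSU-DLCL2 (-0.33). The difference between both genes in a line was not tested.

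Other genes of the same pathways were counted in the same way. Of all genes 9.93% fell and 14.6% rose in Pfeiffer, 12.7% and 13.9% in WSU-DLCL2, and 13.4% and 15.5% in KARPAS-422. In SU-DHL-10 it was 7.16% and 11%, in HT 3% and 6.31%, and in SU-DHL-6 3.56% and 7.42%. Of 24 other homologous recombination genes, 9 fell in WSU-DLCL2 and 9 in Pfeiffer (37.5% each), and 6 fell and 3 rose in KARPAS-422 (25% and 12.5%). In HT 4 fell (16.7%). In SU-DHL-10 and in SU-DHL-6 1 fell (4.17% each), below the share of all genes in SU-DHL-10 and near it in SU-DHL-6. DNA2, a nuclease of long-range resection, and POLQ, a polymerase of end joining at resected breaks, had the largest mean changes of that list. DNA2 fell in Pfeiffer (-0.79 ± 0.11), KARPAS-422 (-0.56 ± 0.11), HT (-0.48 ± 0.11) and SU-DHL-6 (-0.34 ± 0.11), and POLQ in Pfeiffer (-0.52 ± 0.10), WSU-DLCL2 (-0.48 ± 0.10) and HT (-0.44 ± 0.10). Of 18 other checkpoint genes, 10 fell in Pfeiffer (55.6%), 8 in KARPAS-422 (44.4%), 7 in WSU-DLCL2 (38.9%), 4 in SU-DHL-10 (22.2%) and 3 in HT (16.7%). In SU-DHL-6 1 of these checkpoint genes fell and 1 rose (5.56% each). They were led by CDC25A, the phosphatase that CHEK1 restrains, which fell in KARPAS-422 (-1.08 ± 0.15), Pfeiffer (-0.94 ± 0.15), WSU-DLCL2 (-0.62 ± 0.15) and HT (-0.50 ± 0.15). Of 12 other Fanconi anaemia genes, 4 fell and 1 rose in Pfeiffer (33.3% and 8.33%), and 5 fell in WSU-DLCL2 (41.7%). In KARPAS-422 2 fell and 2 rose (16.7% each), near the shares of all genes. In HT 1 fell, in SU-DHL-6 1 fell and 1 rose, and in SU-DHL-10 1 rose (8.33% each). UBE2T, the partner enzyme of FANCL, fell in Pfeiffer (-0.69 ± 0.08), KARPAS-422 (-0.47 ± 0.08), HT (-0.32 ± 0.08) and SU-DHL-6 (-0.31 ± 0.08). Of 3 other mismatch repair genes PMS1 fell, in Pfeiffer (-0.37 ± 0.07), WSU-DLCL2 (-0.32 ± 0.07), KARPAS-422 (-0.39 ± 0.07) and SU-DHL-6 (-0.23 ± 0.07).

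Genes of end joining and of excision repair were counted as well. Of 9 end joining genes, 1 fell and 1 rose in Pfeiffer (11.1% each, against 9.93% and 14.6% of all genes) and in SU-DHL-10 (11.1% each, against 7.16% and 11%). In KARPAS-422 2 fell and 2 rose (22.2% each, against 13.4% and 15.5%). In HT 1 fell and in DB 1 (11.1% each, against 3% and 0.618%), and 0 passed in WSU-DLCL2 (limma, 1 lower and 0 higher at an unadjusted p under 0.05). PRKDC, the kinase of that pathway, fell in Pfeiffer (-0.58 ± 0.07), KARPAS-422 (-0.46 ± 0.07), HT (-0.27 ± 0.07) and SU-DHL-10 (-0.19 ± 0.07), while POLM rose in KARPAS-422 (0.49 ± 0.15). Of 18 base and nucleotide excision repair genes, 3 fell and 3 rose in Pfeiffer (16.7% each). In WSU-DLCL2 and in KARPAS-422 5 fell and 2 rose (27.8% and 11.1%), against 12.7% and 13.9% of all genes and 13.4% and 15.5%. In SU-DHL-10 3 fell and 2 rose (16.7% and 11.1%, against 7.16% and 11%). In SU-DHL-6 1 fell and 1 rose (5.56% each, against 3.56% and 7.42%), and in HT 1 fell (5.56%, against 3%). UNG, which removes uracil from DNA, fell in Pfeiffer (-0.88 ± 0.07), KARPAS-422 (-0.74 ± 0.07), WSU-DLCL2 (-0.50 ± 0.07), SU-DHL-10 (-0.36 ± 0.07) and HT (-0.35 ± 0.07).

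Lists of cell cycle genes were read in the same way, beside the same shares of all genes in each line (9.93% fallen and 14.6% risen in Pfeiffer). All 22 replication genes fell in Pfeiffer, 21 in KARPAS-422 (95.5%), 14 in WSU-DLCL2 (63.6%) and 9 in HT (40.9%). In each of SU-DHL-6 and SU-DHL-10 6 fell (27.3%), and in SU-DHL-4 1 (4.55%, against 0.454% of all genes). CDC45 had the largest mean change of that list and fell in WSU-DLCL2 (-1.12 ± 0.13), Pfeiffer (-1.10 ± 0.13) and KARPAS-422 (-0.73 ± 0.13). CDC6, which loads the replicative helicase, fell in 6 lines, most in Pfeiffer (-0.91 ± 0.07). Of 18 mitotic genes 17 fell in Pfeiffer (94.4%), 10 in WSU-DLCL2 (55.6%) with 1 risen (5.56%), and 13 in KARPAS-422 (72.2%). In SU-DHL-10 6 fell (33.3%) and 2 rose (11.1%, against 11% of all genes), in HT 6 fell (33.3%) and in SU-DHL-6 2 (11.1%). Among them CCNA2, the cyclin of S and G2 phase, fell in 6 lines, most in Pfeiffer (-0.97 ± 0.06). Of 11 targets of p53, 5 rose and 2 fell in Pfeiffer (45.5% and 18.2%), 4 rose and 2 fell in WSU-DLCL2 (36.4% and 18.2%), and 5 rose in KARPAS-422 (45.5%). In SU-DHL-10 and in HT 3 of them rose and 1 fell (27.3% and 9.09%), 3 rose in SU-DHL-6 (27.3%) and 1 in SU-DHL-4 (9.09%, against 2.14% of all genes). SESN1, a stress sensor, rose in 7 lines, most in WSU-DLCL2 (2.55 ± 0.19). GADD45A rose in KARPAS-422 (2.87 ± 0.12), Pfeiffer (1.32 ± 0.12), SU-DHL-10 (0.98 ± 0.12) and HT (0.64 ± 0.12), and fell in WSU-DLCL2 (-0.44 ± 0.12). Of 6 genes tied to the ligase that DTL serves, 1 fell and 1 rose in Pfeiffer (16.7% each), 3 rose in WSU-DLCL2 (50%), and 2 fell and 2 rose in KARPAS-422 (33.3% each). CDT1, its licensing substrate, fell in Pfeiffer (-1.10 ± 0.14) and KARPAS-422 (-0.67 ± 0.14).

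**Figure D4:**
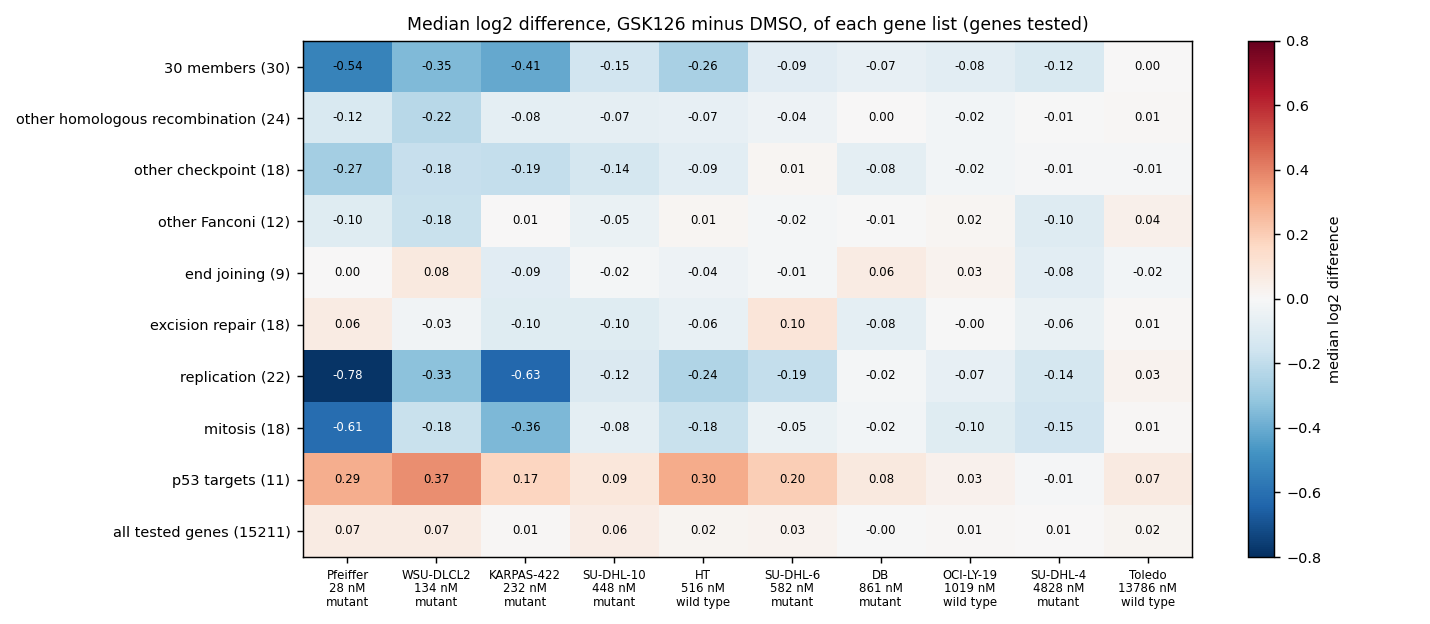
Median change with GSK126 (log2 difference, GSK126 minus DMSO) of the 30 genes, of related gene lists and of all tested genes, with the number of genes tested in brackets and lines in order of growth IC50. The 30 genes have medians of -0.54, -0.35 and -0.41 in Pfeiffer, WSU-DLCL2 and KARPAS-422, and replication genes -0.78, -0.33 and -0.63.

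Across lines the genes differed in how closely they followed the replication genes and the mitotic genes. The correlation of a gene's 10 changes with the median change of the 22 replication genes was 0.96 for CHEK1, 0.92 for TIMELESS, 0.92 for DTL and 0.90 for RAD54L. It was -0.50 for ATR, -0.31 for FANCL and -0.12 for FANCC. With the median change of the 18 mitotic genes it was similar, at 0.93 for CHEK1, 0.95 for TIMELESS, 0.89 for DTL and 0.89 for RAD54L. For ATR it was -0.31, for FANCL -0.40 and for FANCC 0.03. These values describe 10 lines whose genes were read from the same arrays. Among the 30 genes the median correlation of changes over 435 pairs was 0.55, and that of their DMSO levels was 0.07.

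With the line as the replicate, 0 of the 30 genes passed the test in any of the 6 comparisons across lines (limma, adjusted over 15211 genes). For the mean response of the 10 lines 0% of all genes passed in either direction. DONSON had the smallest p, with a mean change of -0.30 ± 0.07, lower in 9 of 10 lines and adjusted p = 0.0707. At an unadjusted p under 0.05 stood 25 of the 30 genes and 25.5% of all genes, with both directions counted. Of the list 24 were lower and 1 higher, against 1384 lower and 2498 higher among all 15211 genes. The 30 genes had a median of -0.18, against 0.04 over all genes, and 27 of them lay below 0. This 0 depended on the scaling: with arrays at equal medians 24 genes of the list passed below 0, against 14.6% of all genes, DONSON at -0.43 (adjusted p = 0.0282).

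Over the 7 mutant lines 0 genes of the list passed, as did 0% of all genes below 0 and 0.00657% above. DONSON again had the smallest p, at -0.36 ± 0.08 (adjusted p = 0.0593, lower in 7 of 7 lines), and 23 of the 30 were under an unadjusted 0.05, against 25.1% of all genes. All 23 were lower, while among all 15211 genes 1445 were lower and 2368 higher. With arrays at equal medians 22 of the list passed below 0, against 11.2%. Over the 3 wild type lines 0 genes of the list passed, as did 0% of all genes in either direction, and 0 of the 30 were under an unadjusted 0.05, against 3.62% of all genes. Within the wild type lines the change of CHEK1 was -0.70 in HT, -0.23 in OCI-LY-19 and -0.11 in Toledo.

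The difference in response between mutant and wild type lines was tested directly. It passed for 0 of 30 genes and 0% of all genes in either direction. RAD54B had the smallest p, with a mean change of -0.50 ± 0.33 in mutant lines against 0.05 ± 0.10 in wild type lines (SD, n = 7 and 3), a difference of -0.55 with unadjusted p = 0.0187 and adjusted p = 0.992. It was the 1 gene of the list under an unadjusted 0.05, against 3.78% of all genes. The labels' descriptions carry an R tag of unstated meaning, R6 for Toledo, Pfeiffer and KARPAS-422, R8 for OCI-LY-19 and SU-DHL-6 and R7 for the other 5 lines. It was taken as a possible batch. Within these tags the difference for RAD54B was -0.71 in R6, -0.43 in R7 and -0.43 in R8, and it was -0.52 with the tag as a block (adjusted p = 0.997). For CHEK1, by contrast, it was -1.17 in R6, 0.33 in R7 and -0.01 in R8. Each tag holds 1 wild type line, and R8 also holds 1 mutant line. The differences within tags therefore have no spread between wild type lines.

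The response was also set against log10 of the growth IC50, where a positive slope means a smaller fall in less sensitive lines. The slope passed for 0 of 30 genes and 0% of all genes in either direction. EXO1 had the smallest p, with a slope of 0.36 ± 0.08 per 10-fold of gIC50 (unadjusted p = 0.000793, adjusted p = 0.43). CHEK1 had the steepest slope, 0.53 ± 0.17 (adjusted p = 0.43). Of the 30 slopes 26 were above 0, with a median of 0.19, against -0.01 over all genes, and 20 were under an unadjusted 0.05, against 9.34% of all genes. All 20 lay above 0, while among all 15211 genes 824 lay above 0 and 596 below. With the R tag as a block the slope was 0.35 for EXO1 (adjusted p = 0.483) and 0.49 for CHEK1 (adjusted p = 0.501), and 0 of the 30 passed. No within-tag slope is given, since a tag holds 5 lines or fewer.

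Levels with DMSO alone were compared last. Mutant and wild type lines differed for 0 of 30 genes, against 0.0263% of all genes lower and 0.0263% higher in mutant lines. FANCB had the smallest p, at 7.32 ± 0.62 in mutant lines against 8.50 ± 0.89 in wild type lines (SD, n = 7 and 3), a difference of -1.18 with unadjusted p = 0.0259 and adjusted p = 0.582. It was the 1 gene under an unadjusted 0.05, against 7.78% of all genes. Within tags, with 1 wild type line in each, its difference was -0.99 in R6, -2.18 in R7 and -0.14 in R8. Leaving out 1 line gave -1.66 to -0.77 (-0.77 without HT), and the mean of all probe sets gave -0.79. ATM spanned the widest range of the checkpoint genes, from 9.25 in Toledo to 12.14 in KARPAS-422, and CHEK1 ran from 10.35 in SU-DHL-6 to 11.83 in OCI-LY-19. DTL lay between 11.25 in DB and 12.71 in Toledo. BRCA1 had the narrowest range of the 30, from 11.32 in DB to 11.87 in Pfeiffer.

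**Figure D5:**
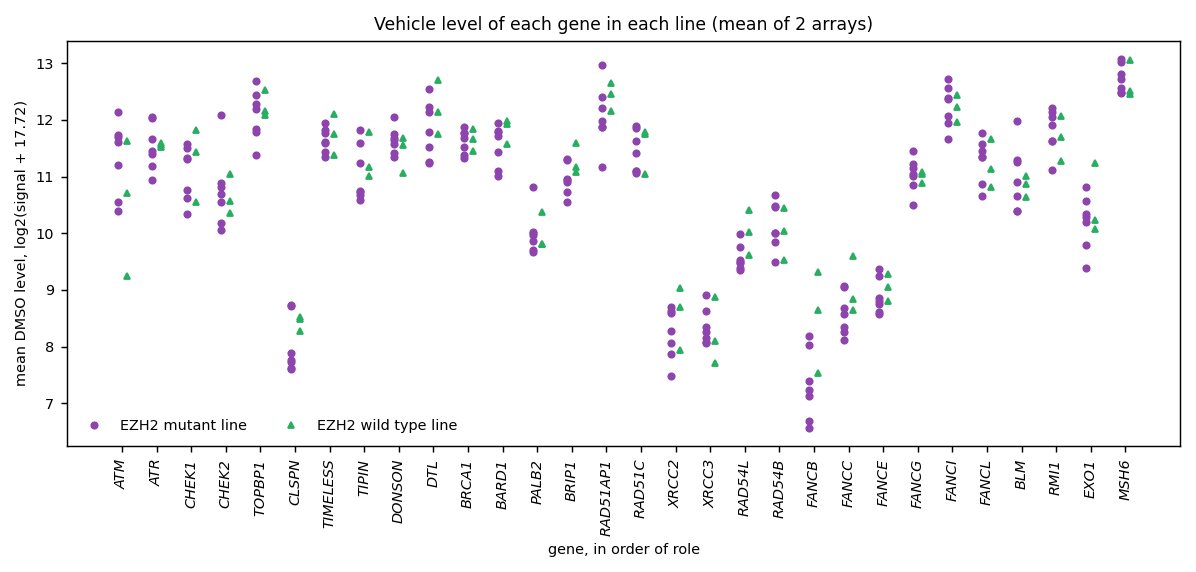
DMSO level of the 30 genes, log2(signal + 17.72), in order of role, with the mean of 2 arrays for each EZH2 mutant line (purple circles, 7) and each wild type line (green triangles, 3). Levels of different genes come from different probe sets and are not compared, and within each of the 30 genes the mutant and wild type lines overlap.

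For 14 of the genes 30 further probe sets were read, and the changes of 16 of them correlated with those of the chosen set at r above 0.5 over the 10 lines, while 5 had r below 0. The lowest r was -0.38, for a set of ATM, and the 2 further sets of ATR had 0.36 and 0.08. Both probe sets of DTL, of BRIP1 and of BRCA1 correlated over the 10 changes (r = 0.94, 0.83 and 0.86), and for CHEK1 2 further sets did (r = 0.93 and 0.94) while another did not (r = 0.26). Those further sets of CHEK1 had mean changes of -0.53 and -0.41, against -0.53 for the chosen one.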

How the data were processed

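RNA of 40 arrays was deposited as log2 signals, made by the authors with MAS5 and scaled to a 2% trimmed mean of 500, per the submitters' processing notes. Signals were taken back to the linear scale and analysed as log2(signal + 17.72), the pseudocount being the median over arrays of the 25th percentile. This understates the change of dim genes. Of 54675 probe sets 41091 had a single symbol, 1801 several and 11721 none. Genes were tested (15211 of 19775) where their probe set lay above the median of its array on 2 arrays or more. limma 3.58.1 in R 4.3.3 was fitted with intensity trend over the 20 groups (20 residual degrees of freedom), and for comparisons across lines over 1 value per line, with Benjamini-Hochberg adjustment over 15211 genes. Values after ± are the fit's standard errors, or an SD where so named. The fits were tested on simulated data. The number of arrays limits the precision.

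The 33 genes, the other lists and the tests were chosen with earlier results of these data known. Values on every array are given for the 2 genes of each role group called in most lines, ties going to the larger mean absolute change, and for every risen gene. From each other list up to 2 genes with the largest mean absolute change could be named. Promoters shown are those of the 2 genes called in most and the 2 called in fewest lines, among genes with a RefSeq entry. Ties went to the larger mean absolute change among the most called and to the smaller among the least called, a tie rule set after the data were seen. Replicate numbers did not pair the arrays (correlations of same-numbered deviations from -0.04 to 0.07). Alternatives were quantile normalization, equal array medians, a pseudocount of 1, no filter, the mean of all probe sets, each line fitted alone, the replicate number or the R tag as a block, and leaving out each array or line.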

Additional observations from a re-analysis of the deposited data

Results flagged for a closer look

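In 60 groups of 7 mutant lines, 1 for each gene's change and 1 for its DMSO level, 4 held a line far from the other 6, where chance gives about 1 in 20 groups. ATM changed by -0.78 in Pfeiffer, and the nearest other mutant line was at -0.14. FANCG changed by -0.44 in KARPAS-422, with the nearest line at -0.24. The DMSO level of CHEK2 was 12.09 in Pfeiffer, and that of the nearest line 10.89. The DMSO level of PALB2 was 10.81 in Pfeiffer, and that of the nearest line 10.02.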

How the results depend on the processing

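Of 91 calls of a gene in a line, 86 held after quantile normalization, 86 with equal array medians, 90 with a pseudocount of 1, 89 without the filter, 83 with the mean of all probe sets, 71 with each line fitted alone and 89 with the replicate number as a block. Of the 209 values without a call, 27 were called with equal medians, 7 with the mean of probe sets, 6 after quantile normalization, 2 with the block, 1 with lines fitted alone and 0 with the other pseudocount or without the filter. The sign turned in 1 call, MSH6 in SU-DHL-10 with the mean of all probe sets (0.023), which was not called as a rise. That mean includes a dim set which failed the filter. Each other set of MSH6 was lower in all 10 lines. Leaving out 1 array kept 66 of the 91 calls throughout, and 4 were lost whichever array was left out.

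With equal medians 1 of these genes fell in SU-DHL-4 (0.118% of all genes), 14 in SU-DHL-6 (12.5%) and 21 in SU-DHL-10 (21.8%). The number that rose was 0 in WSU-DLCL2 (5.44% of all genes) and 0 in SU-DHL-10 (5.11%). In the mean of 10 lines 24 passed below 0 (14.6% of all genes), and 22 did in the mean of 7 mutant lines (11.2%). Each of the other alternatives run on those means left them with 0. The R tag as a block was not run for the mean of mutant lines. After quantile normalization 1 rose in KARPAS-422 (13.3% of all genes) and 0 in SU-DHL-10 (9.96%). With the mean of probe sets 0 rose in WSU-DLCL2, 2 in KARPAS-422 and 0 in SU-DHL-10, and 1 fell in DB. With each line fitted alone 7 fell and 0 rose in SU-DHL-10, 0 rose in WSU-DLCL2, and 0 fell in SU-DHL-6 and SU-DHL-4, with fewer arrays behind each spread. Shares of all genes with the mean of probe sets and with lines fitted alone are not given here, so those counts describe the list only. The causes of the other shifts were not tested.

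Leaving out 1 array gave 19 to 21 falls in Pfeiffer, 16 to 19 in WSU-DLCL2, 17 to 19 in KARPAS-422, 9 to 10 in HT, 7 to 10 in SU-DHL-10 (7 without DMSO replicate 1), 2 in SU-DHL-4 and 2 to 3 in SU-DHL-6, and 0 to 1 rises in WSU-DLCL2 and SU-DHL-10. The share of all genes in these refits is not given here, so the counts describe the list only. With the replicate number as a block, 10 genes fell in HT and 4 in SU-DHL-4, and the other lines kept their counts. Over all genes 3491 were called in Pfeiffer, against 3738 without the block, and 1214 in HT, against 1417. In SU-DHL-4 it was 279, against 395, and in Toledo 16, against 25. The replicates share only a number, so this pairing is not part of the design.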
